A study of Arabidopsis thaliana with 24 samples.

Results

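NAC103, NAC082, SOG1, NAC044 and NAC085 are 5 transcription factor genes of the Arabidopsis NAC family. They were taken by gene ID (AT5G64060, AT5G09330, AT1G25580, AT3G01600 and AT5G14490) from a table of 24497 genes measured by mRNA sequencing in root tips. NAC factors share a DNA-binding domain, and different members carry different stress signals to the nucleus. NAC103 is known as a target of bZIP60 in the unfolded protein response of the endoplasmic reticulum (ER), and it has also been placed among the genes acting in the response to DNA damage. NAC082, its close relative, is known for the growth response to ribosomal stress. SOG1 is the plant's central transcription factor after DNA damage, activated by the kinases ATM and ATR, and NAC044 and NAC085 are SOG1 targets that hold cells in G2.

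The study placed 4 genotypes on control medium or on spectinomycin, which stops protein synthesis on plastid ribosomes, with 3 biological replicates in each of the 8 groups. The genotypes were wild type (WT, Col), the gun1-101 mutant of GUN1, a plastid protein of signalling to the nucleus, the nac103-11 mutant, and NAC103-OX, which carries NAC103 fused to GFP behind the 35S promoter, a viral promoter active in most tissues. Seedlings of about 5 days were moved to medium with 10 mg/L spectinomycin, and tips of about 0.5 cm were taken. The incubation is given as about 16 h in the treatment protocol and about 24 h in the design text; which one holds could not be settled. The medium of the control seedlings after transfer, the nature of the nac103-11 lesion and the number of independent NAC103-OX lines are not given in the sources used here. The batch label has 1 value for each group, so batch and group cannot be told apart.

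Libraries held 13012580 to 17411876 counts. All 9 root tip markers, such as PLT1 and SCR, were present in every group, with a summed level of 68.4 to 90.1 CPM (the share of a library’s counts that a gene takes, scaled by TMM factors). In the WT control group, replicate 2 differed from both of its partners (chi-square per degree of freedom 8.64 and 8.72, against 1.79 between these partners and at most 4.30 within any other group). Its 7 shoot and leaf markers summed to 275.6 CPM against about 109 CPM in the other WT control libraries, with the shoot markers STM, CLV3 and AFO at 0 in all WT control libraries. Of the 7, only RBCS1A, LHCB1.3 and VSP1 passed the filter on low counts described below. On control medium the sum ran from 108.7 to 275.6 CPM for WT libraries, from 267 to 281 for gun1-101, from 115.5 to 127 for nac103-11 and from 169 to 179 for NAC103-OX. On spectinomycin it ran from 282.5 to 295 CPM for WT, from 286.5 to 315 for gun1-101, from 217 to 235 for nac103-11 and from 147 to 163 for NAC103-OX, and its part in the results below was not tested. In bulk tissue, fewer cells of a type and less RNA per cell cannot be told apart.

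The promoters of NAC044 and NAC103 are shown because each holds a match to the palindrome bound by SOG1. Both genes differed between groups, but the NAC103 counts in NAC103-OX include the transgene, which has a viral promoter. The other called differences of NAC103 involved the mutant of that gene. Whether either match plays a part in any difference was not tested. Each sequence (RefSeq, TAIR10.1) runs from 250 bases before the annotated start to 25 bases after it, 5′ to 3′ on the gene's strand, with the match in capitals. NAC044 lies on the plus strand and its window is chr3:228825-229099. NAC103 lies on the minus strand and its window is chr5:25635765-25636039.
NAC044: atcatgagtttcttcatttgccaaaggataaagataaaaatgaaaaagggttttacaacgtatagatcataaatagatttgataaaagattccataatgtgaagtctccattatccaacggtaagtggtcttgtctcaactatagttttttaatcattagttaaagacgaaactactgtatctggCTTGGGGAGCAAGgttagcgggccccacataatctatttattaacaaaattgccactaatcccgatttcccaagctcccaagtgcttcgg
NAC103: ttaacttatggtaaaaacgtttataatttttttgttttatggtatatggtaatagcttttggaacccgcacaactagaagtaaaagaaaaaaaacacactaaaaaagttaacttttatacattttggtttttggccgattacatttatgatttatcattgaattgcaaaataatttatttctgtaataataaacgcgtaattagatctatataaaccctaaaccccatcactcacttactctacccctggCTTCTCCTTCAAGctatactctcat
The letters searched on both strands, over 250 bases before to 50 bases after each start, were CTT and AAG with any 7 bases between them for SOG1, found in 11.8% of 27443 promoters, TCATCG (an ER stress element, 8.63%), CACGTG (the G-box, 7.68%) and CTTG and CANG with any 5 bases between them (the mitochondrial dysfunction motif, 2.14%). The match in NAC044, at bases -65 to -53, fits both the SOG1 letters and the mitochondrial dysfunction letters and overlaps in full. The match in NAC103 covers bases 1 to 13 of the transcript and fits the SOG1 letters alone. These windows of NAC082, SOG1 and NAC085 held none of the 4 motifs, and a match is a description of letters only.

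Among the 5 coding sequences, NAC103 and NAC082 were identical at 76.1% of ungapped aligned bases and NAC044 and NAC085 at 78.1%, while SOG1 and NAC044 shared 70.5%. NAC103 and NAC082 shared 1 distinct word of 25 bases and NAC044 and NAC085 shared 8, and such words can overlap each other. The deposited expected counts of the 5 genes were whole numbers in every library. Whether any reads were split between the members of a pair was not tested. NAC103 (chr5:25633455-25635789, 5 exons) has a coding sequence of 1071 bases and NAC082 (chr5:2892338-2895480, 5 exons) one of 1470. SOG1 (chr1:8996714-8999917, 6 exons) has one of 1350, NAC044 (chr3:229075-231517, 6 exons) one of 1101 and NAC085 (chr5:4670289-4672958, 5 exons) one of 1086.

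The members lay on very different levels. On the length-corrected TPM scale in WT control tips, NAC082 was at 76.9 ± 3.6 (SD, n = 3), SOG1 at 15.7 ± 0.81, NAC103 at 0.647 ± 0.12, NAC044 at 0.573 ± 0.25 and NAC085 at 0.11 ± 0.11. NAC082 thus stood 119 times above NAC103 in mean TPM, SOG1 lay between them, and NAC103 and NAC044 did not differ beyond their spread. In NAC103-OX the order changed: NAC103 reached 14.98 ± 0.65 TPM on control medium and 17.96 ± 0.43 on spectinomycin, beside SOG1 at 15.6 ± 0.74 and 17.0 ± 0.47. NAC082 then stood 4.18 times above NAC103 on control medium. Over all 24 libraries SOG1 varied from 12.84 to 17.93 TPM, NAC082 from 56.56 to 86.09 and NAC044 from 0.24 to 2.88.

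**Figure D1:**
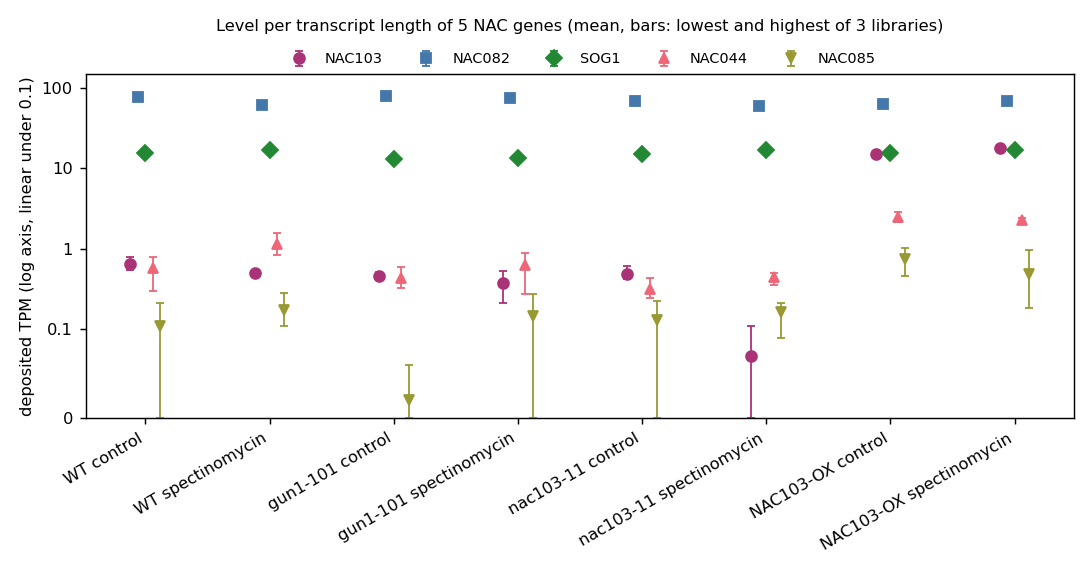
Level of the 5 NAC genes in TPM, corrected for transcript length, on a log axis (linear under 0.1) in the 8 genotype-by-medium groups; symbols are means and bars run from the lowest to the highest of 3 libraries. NAC082 is highest in every group, at group means of 59.6 to 78.9 TPM, and NAC103 reaches the level of SOG1 in the NAC103-OX groups.

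The low genes limit what can be compared. NAC103 had 10 or more counts in 10 of 24 libraries and in 4 of the 18 libraries without the transgene, and NAC044 in 15 of 24 and 9 of 18. A filter on low counts kept NAC103, NAC082, SOG1 and NAC044 among 19567 genes and left out NAC085. NAC103 and NAC044 passed it without the NAC103-OX libraries too. Differences were tested with edgeR's quasi-likelihood test over all 19567 genes, with Benjamini-Hochberg adjusted p-values, and a gene was called at an adjusted p under 0.05.

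In WT tips on spectinomycin against control, 2 of the 4 tested members were called, where 40.6% of all genes were. In nac103-11 the response of 2 members was called (44.8% of all genes). No member was called in the response of gun1-101 (11.2% of all genes) or of NAC103-OX (5.06%), by edgeR or by DESeq2; 1 member had an unadjusted p under 0.05 in each. Against WT on control medium, 1 member differed in gun1-101 (40.5%), 3 in NAC103-OX (45.3%) and 0 in nac103-11 (43.3%), the last with 0 by DESeq2 and 0 at an unadjusted p under 0.05. On spectinomycin 1 member differed in gun1-101 (57%), 2 in nac103-11 (26.6%) and 3 in NAC103-OX (16.8%). The response itself differed from that of WT for 1 member in gun1-101 (24.5%), 1 in nac103-11 (11.8%) and 2 in NAC103-OX (31.6%). With 4 tested members, these counts were not set apart from the shares over all genes, and the members are therefore described singly.

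**Figure D2:**
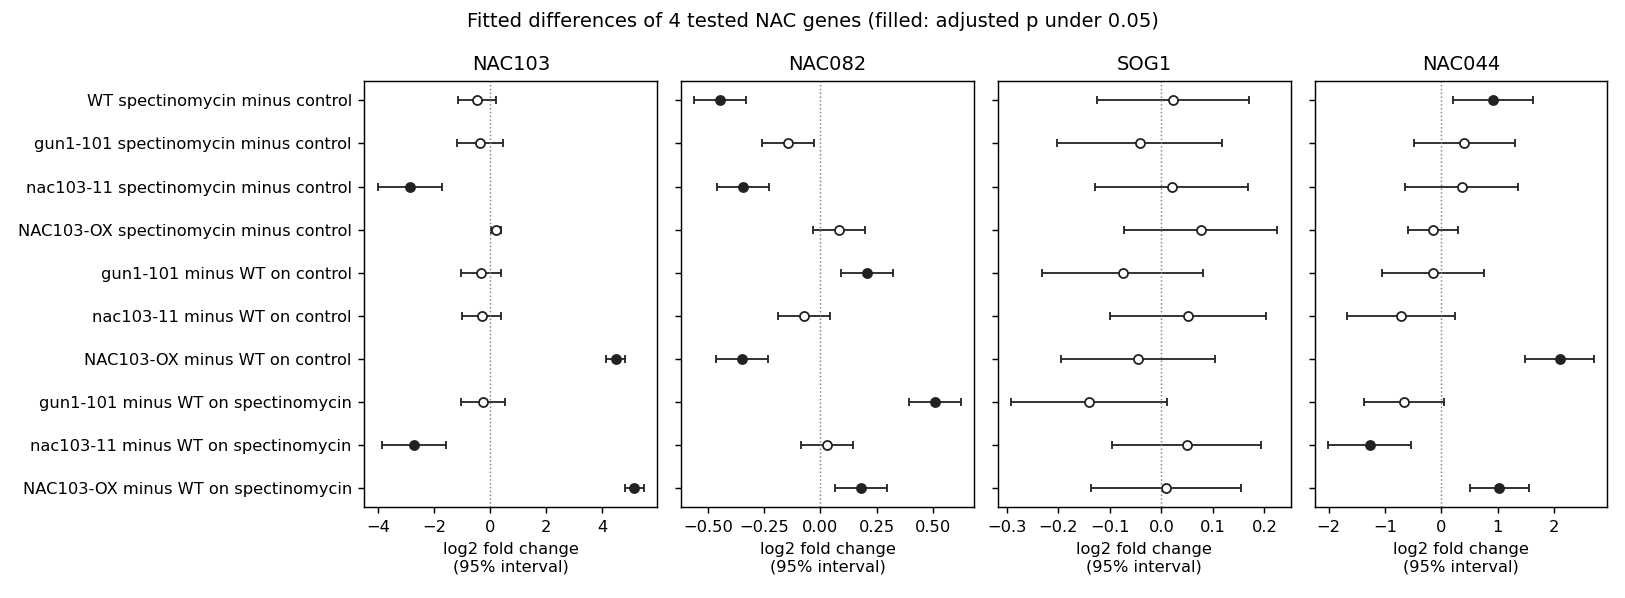
Log2 difference of each tested NAC gene in the responses to spectinomycin and in the comparisons with WT, on the x axis of 4 panels with their own scales, with bars for 95% intervals from the fit of 24 libraries; filled points have an adjusted p under 0.05. NAC103 in NAC103-OX stands at 4.48 and 5.15, while SOG1 has no value below -0.14 and no call.

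NAC103 was measured at 0.733, 0.917 and 0.641 CPM in WT control tips (12, 16 and 9 counts) and at 0.568, 0.515 and 0.591 CPM in WT on spectinomycin. The 3 spectinomycin libraries lay below the 3 control libraries, but the difference was not called (log2 difference -0.46 ± 0.32 (SE), adjusted p = 0.300). In gun1-101 it was 0.568, 0.586 and 0.687 CPM on control medium and 0.478, 0.274 and 0.676 on spectinomycin, with overlapping libraries. Neither the gun1-101 response nor either comparison with WT was called. The 95% interval of the WT difference, -1.14 to 0.22, allows a change of either sign.

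The nac103-11 libraries held 7, 8 and 12 NAC103 counts on control medium (0.533, 0.541 and 0.777 CPM), overlapping WT (-0.31 ± 0.33, adjusted p = 0.515). On spectinomycin they held 2, 0 and 2 counts (0.129, 0 and 0.113 CPM), below all 3 WT libraries with 9, 9 and 11. There NAC103 was 6.59 times lower than in WT (-2.72 ± 0.53, 95% interval -3.85 to -1.59, adjusted p = 9.41e-05), and it fell within nac103-11 on the antibiotic (-2.87 ± 0.54, adjusted p = 2.06e-05). The fall differed from the WT response (-2.41 ± 0.65, adjusted p = 0.0113), but without nac103-11 spectinomycin replicate 2 that difference was -1.84 (adjusted p = 0.0999). Counts per gene do not show whether the transcript is intact, so on control medium they do not check the nac103-11 label.

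In NAC103-OX, NAC103 counts include the transgene and cannot be separated from the resident gene. They came to 17.9, 16.6 and 17.6 CPM on control medium (288, 251 and 272 counts) and 19.6, 19.98 and 20.6 CPM on spectinomycin, far above every other library. NAC103 was 22.2 times higher than in WT on control medium (4.48 ± 0.16, adjusted p = 1.89e-26) and 35.4 times higher on spectinomycin (5.15 ± 0.16, adjusted p = 3.93e-27). Within NAC103-OX the spectinomycin libraries lay above the control libraries, with no call (0.21 ± 0.089, adjusted p = 0.171).

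**Figure D3:**
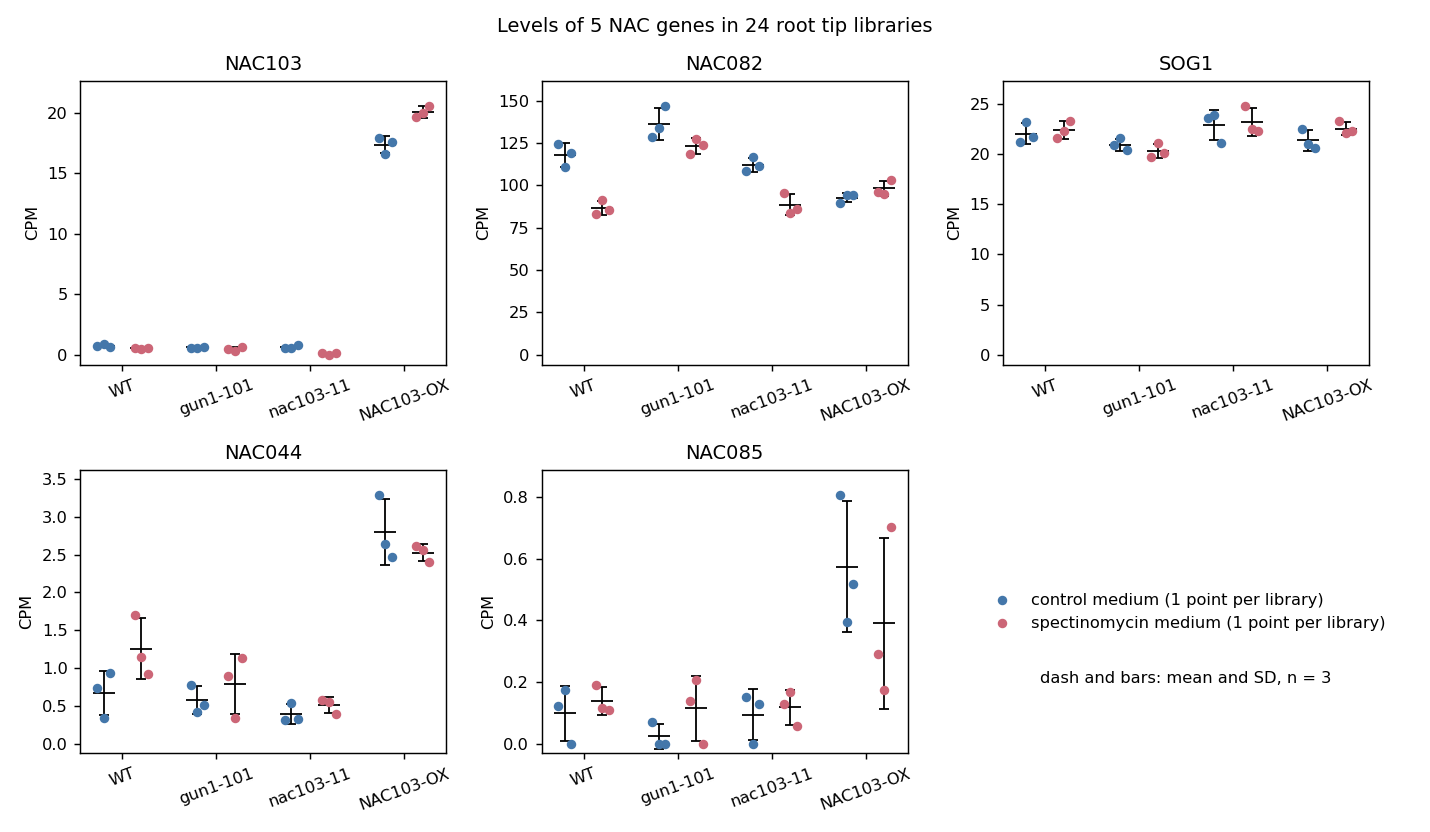
CPM of each NAC gene in the 24 libraries by genotype and medium, one panel per gene with its own linear axis; each point is 1 library, and the dash and bars give the mean and SD (n = 3). NAC103 is high in the 6 NAC103-OX libraries, the NAC082 libraries of the 2 media do not overlap in any genotype (lower on spectinomycin in WT, gun1-101 and nac103-11, higher in NAC103-OX), and SOG1 stays between 19.7 and 24.8 CPM.

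NAC082 was the member with the clearest response to the antibiotic in WT. It was at 124, 111 and 119 CPM on control medium and at 83.3, 91.2 and 85.7 on spectinomycin, so the groups did not overlap. It fell by 0.44 ± 0.054 on the log2 scale (adjusted p = 5.00e-09). In nac103-11, libraries at 108, 117 and 111 CPM on control medium stood against 95.8, 84.0 and 86.1 on spectinomycin. NAC082 fell there as well, by 0.34 ± 0.055 (adjusted p = 1.40e-06), and the response did not differ detectably from that in WT (difference 0.10, 95% interval -0.062 to 0.27, adjusted p = 0.471). NAC082 in nac103-11 was not called against WT on either medium, but with scaling by total counts it was called lower on control medium (-0.21, adjusted p = 0.00113).

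In gun1-101, NAC082 was at 129, 134 and 147 CPM on control medium and at 119, 127 and 124 on spectinomycin. The spectinomycin libraries were lower, with no overlap, but the response was not called (-0.14 ± 0.054, adjusted p = 0.0798). The response differed from that in WT by 0.30 ± 0.077 (adjusted p = 0.00275). On spectinomycin NAC082 was 1.42 times higher in gun1-101 than in WT (0.51 ± 0.055, adjusted p = 9.93e-11), with the mutant above WT in every library. That difference was 0.28 (adjusted p = 1.4e-05) when libraries were scaled by total counts alone, a scaling that moved the median of all genes in this comparison by -0.23. On control medium the excess was 0.21 ± 0.054 (adjusted p = 0.00170), and 0.018 (adjusted p = 0.785) by total counts, so it rests on the scaling.

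NAC103-OX tips held less NAC082 than WT on control medium and more on spectinomycin. On control medium its libraries were at 89.6, 94.2 and 94.3 CPM, all below WT, and NAC082 was 1.27 times lower (-0.35 ± 0.055, adjusted p = 8.82e-07). On spectinomycin they were at 96.2, 95.03 and 103 CPM, all above the WT libraries, and NAC082 was 1.132 times higher (0.18 ± 0.055, adjusted p = 0.0185), a call lost without any 1 of 3 libraries (adjusted p up to 0.131). The response within NAC103-OX was not called (0.083 ± 0.055, adjusted p = 0.422). It differed from the WT response by 0.53 ± 0.077 (adjusted p = 4.79e-07). The untreated NAC103-OX libraries (89.6 to 94.3 CPM) thus lay near the WT libraries on spectinomycin (83.3 to 91.2 CPM), and those 2 groups were not tested against each other.

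SOG1, the regulator at the head of the DNA damage response, varied little. Its 24 libraries lay between 19.7 and 24.8 CPM, with a WT range of 21.2 to 23.2 on control medium and 21.5 to 23.3 on spectinomycin. None of the 13 comparisons was called by edgeR or DESeq2, and 0 had an unadjusted p under 0.05 in edgeR, the largest difference being -0.14 ± 0.072 for gun1-101 against WT on spectinomycin (adjusted p = 0.0915). In that comparison the gun1-101 libraries, at 19.7, 21.1 and 20.12 CPM, were below all WT libraries. Scaled by total counts, SOG1 was lower in gun1-101 on spectinomycin (-0.37, adjusted p = 2.06e-05) and on control medium (-0.26, adjusted p = 0.00233), so the level of SOG1 in gun1-101 depends on the scaling.

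NAC044, a SOG1 target that restrains the G2 to M step, was highest in NAC103-OX. There it was at 3.29, 2.64 and 2.46 CPM on control medium (53, 40 and 38 counts) and at 2.61, 2.56 and 2.40 CPM on spectinomycin. WT libraries were at 0.733, 0.344 and 0.926 CPM on control medium (12, 6 and 13 counts) and 1.70, 1.14 and 0.914 CPM on spectinomycin (27, 20 and 17 counts). No NAC103-OX library overlapped WT on the same medium. NAC044 was 4.28 times higher than in WT on control medium (2.10 ± 0.29, adjusted p = 5.48e-08) and 2.04 times higher on spectinomycin (1.03 ± 0.25, adjusted p = 0.00221).

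In WT, NAC044 rose on spectinomycin by 0.92 ± 0.34 (adjusted p = 0.0251), with overlapping libraries. The call was lost without WT control replicate 2, the library that stood apart (0.58, adjusted p = 0.184), without WT spectinomycin replicate 1 (0.65, adjusted p = 0.177) and with DESeq2 (0.90, adjusted p = 0.0682). In NAC103-OX the response was not called (-0.15 ± 0.21, adjusted p = 0.754). It differed from the WT response by -1.07 ± 0.40 (adjusted p = 0.0354). That call was lost with DESeq2 (-1.05, adjusted p = 0.106) and without any 1 of 4 libraries. Without WT control replicate 2 it was -0.73 (adjusted p = 0.161).

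The nac103-11 libraries held NAC044 at 0.305, 0.541 and 0.324 CPM on control medium and at 0.579, 0.554 and 0.394 on spectinomycin, from 4 to 10 counts each. On spectinomycin they lay below all WT libraries, and NAC044 was 2.42 times lower than in WT (-1.27 ± 0.35, adjusted p = 0.00474). Without WT spectinomycin replicate 1 the difference was -1.01 (adjusted p = 0.0543). On control medium the libraries overlapped WT and no difference was called (-0.72 ± 0.45, adjusted p = 0.207). In gun1-101, at 0.780, 0.419 and 0.515 CPM on control medium and 0.887, 0.343 and 1.126 on spectinomycin, no comparison of NAC044 was called.

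NAC085, which acts with NAC044, was near the limit of detection and was left out by the filter. It had 2, 3 and 0 counts in WT control, 1, 0 and 0 in gun1-101 control, 2, 0 and 2 in nac103-11 control and 13, 6 and 8 in NAC103-OX control. On spectinomycin it had 3, 2 and 2 counts in WT, 2, 3 and 0 in gun1-101, 2, 3 and 1 in nac103-11 and 5, 3 and 12 in NAC103-OX. With no filter on low counts, NAC085 was higher in NAC103-OX than in WT on control medium (2.38 ± 0.67, adjusted p = 0.00228, and 2.48, adjusted p = 0.0229, with DESeq2), with no overlap between libraries. On spectinomycin the difference was 1.47 ± 0.66 (adjusted p = 0.143), and it ranged from 0.75, without NAC103-OX spectinomycin replicate 3, to 1.82 with 1 library left out. A difference in any other comparison was not detectable at this depth.

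GUN1 itself was at 148 ± 3.5 CPM (n = 3) in WT control and 85.8 ± 6.9 in gun1-101 control, a fall of the log2 level by 0.79 ± 0.048 (adjusted p = 5.33e-18), so the gun1-101 label fits the counts.

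The pathways around these factors were followed with lists of genes. Over all genes, 40.6% were called in WT on spectinomycin and 20.4% fell. On control medium 22.8% were higher and 22.6% lower in NAC103-OX than in WT, 24.7% and 15.8% in gun1-101, and 23.2% higher of 43.3% called in nac103-11. On spectinomycin the shares were 8.45% and 8.32% in NAC103-OX, 15.5% and 11.1% in nac103-11, and 27.7% and 29.3% in gun1-101. Of 24 ER stress genes, 17 fell and 1 rose in WT on spectinomycin, with a median log2 change of -0.37 against 0.03 over all genes. BZIP60, the activator placed upstream of NAC103, fell from 76.5 ± 3.0 to 35.7 ± 2.2 CPM (-1.10 ± 0.057, adjusted p = 2.11e-20). NAC103 was not called there, but at its low counts the 95% interval (-1.14 to 0.22) includes a fall of that size. In NAC103-OX on control medium, 17 of the 24 were lower and 1 higher than in WT (median -0.58 against 0.00). The ER chaperones BIP2 (-1.34 ± 0.048) and CNX1 (-1.27 ± 0.045) were among those that fell. In gun1-101 on spectinomycin, 19 of the 24 were higher and 2 lower than in WT (median 0.47 against -0.05), with BZIP60 at 141 ± 5.2 CPM. Within nac103-11, 16 of the 24 fell and 1 rose on spectinomycin (median -0.41 against 0.02), where 23.4% of all genes fell. Against WT, nac103-11 had 7 higher and 7 lower on control medium, and 5 higher and 2 lower on spectinomycin.

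Around SOG1, 9 upstream kinases and sensors were listed, of which 4 rose and none fell in WT on spectinomycin (median 0.16 against 0.03). ATM, the kinase that signals double-strand breaks, rose from 36.4 ± 4.5 to 45.6 ± 3.9 CPM (0.32 ± 0.069, adjusted p = 2.00e-04). MRE11, of the break-sensing complex, rose by 0.35 ± 0.094 and ATR by 0.40 ± 0.13. In gun1-101 on spectinomycin, 6 of the 9 were lower than in WT and none was higher (median -0.35 against -0.05). In NAC103-OX on control medium 1 of the 9 was lower, a share under the 22.6% of all genes, and that call was lost with DESeq2 and with no filter on low counts, among others.

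Of 20 tested genes that act downstream of SOG1, 1 rose and 1 fell in WT on spectinomycin, far fewer than the 40.6% of all genes called, and the median was 0.14 against 0.03. With scaling by total counts 5 rose, and with DESeq2 or RLE size factors 0 rose. Over all 19567 genes, 6542 rose with total counts against 3939 with TMM. In NAC103-OX on control medium, 3 were lower and 1 higher than in WT, also under the 45.3% of all genes called. CYCB1;1, a mitotic cyclin known to be induced by DNA damage, was 2.69 ± 0.30 CPM in WT and 1.37 ± 0.21 in NAC103-OX (-0.96 ± 0.22, adjusted p = 4.05e-04). In nac103-11 on control medium, 6 of the 20 were lower and none higher, with a median of -0.29 against -0.004. Of all genes, 3940 of 19567 were lower there, a smaller share than 6 of 20. Without nac103-11 control replicate 2, 3 of the 20 were lower and 3406 of 19679 genes, so the excess rests on that library. Among the 6 was TSO2, a ribonucleotide reductase subunit, at 17.2 ± 0.32 CPM against 32.1 ± 4.8 in WT. On spectinomycin 1 of the 20 was lower in nac103-11 and none higher. In gun1-101, 5 were lower and 1 higher than in WT on control medium, and 9 lower and 2 higher on spectinomycin. The 3-repeat MYB factors, a family with both activators and repressors of G2 and M genes, gave 2 lower of 4 tested in NAC103-OX on control medium (22.6% of all genes), PC-MYB1 (-0.27 ± 0.058) and MYB3R-3 (-0.22 ± 0.073), and 1 without NAC103-OX control replicate 3.

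Of 15 G2 and M phase genes, 6 were lower and none higher in NAC103-OX than in WT on control medium (median -0.26 against 0.00, with 22.6% of all genes lower), and 3 were lower without NAC103-OX control replicate 2. CDKB1;2, a mitotic cyclin-dependent kinase, was at 2.44 ± 0.24 CPM against 3.74 ± 0.31. On spectinomycin 5 of the 15 were lower, and 2 without WT spectinomycin replicate 3, among them CDC20.1, an activator of mitotic exit, at 15.7 ± 0.70 against 21.0 ± 0.78. In nac103-11, the mutant of NAC103, 4 of the 15 were lower than in WT and none higher on control medium (median -0.30). Of all genes, 3940 of 19567 were lower in that comparison. On spectinomycin 2 of the 15 were lower in nac103-11 and none higher, where 11.1% of all genes were lower. Both nac103-11 counts were close to the shares of all genes, so they do not set this list apart. In gun1-101 12 of the 15 were lower on spectinomycin and 9 on control medium. Of 9 root tip markers, 3 were lower in gun1-101 on each medium. Of all genes, 15.8% were lower there on control medium and 29.3% on spectinomycin, so the spectinomycin count was close to the share of all genes. In NAC103-OX on control medium 1 of the 9 was lower (0 to 3 with 1 library left out), a share under that of all genes. The summed root tip markers were 80.4 to 90.1 CPM in WT control libraries, 68.4 to 79.1 in gun1-101 and 73.2 to 81.4 in NAC103-OX, so gun1-101 did not overlap WT and NAC103-OX did. The 7 differentiated root markers summed to 402.7 to 428.1 CPM in NAC103-OX control libraries against 332.4 to 385.4 in WT, with no overlap, and 1 of the 7 was called higher. The part of these markers in the G2 and M counts was not tested.

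Of 17 genes of ribosomes and ribosome assembly, the setting in which NAC082 is known, 16 were lower in nac103-11 than in WT on control medium and none higher (median -0.32 against 0.00), and 12 were lower on spectinomycin. NAP57, the pseudouridine synthase of small nucleolar RNPs, was at 55.5 ± 4.4 CPM against 95.6 ± 1.5 on control medium (-0.79 ± 0.049, adjusted p = 1.98e-17). The differentiated root markers summed to 412.6 to 426.9 CPM in nac103-11 control libraries against 332.4 to 385.4 in WT, and the root tip markers to 75.0 to 80.2 against 80.4 to 90.1, with no overlap in either. On spectinomycin the differentiated root markers did not overlap (418.8 to 422.1 against 392.7 to 400.9 CPM) and the root tip markers did, and the part of either in these counts was not tested. In gun1-101 13 of the 17 were lower on control medium. In WT on spectinomycin, 8 of the 17 rose and none fell, a count that was 0 when the fit held only the groups compared and 3 with DESeq2.

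**Figure D4:**
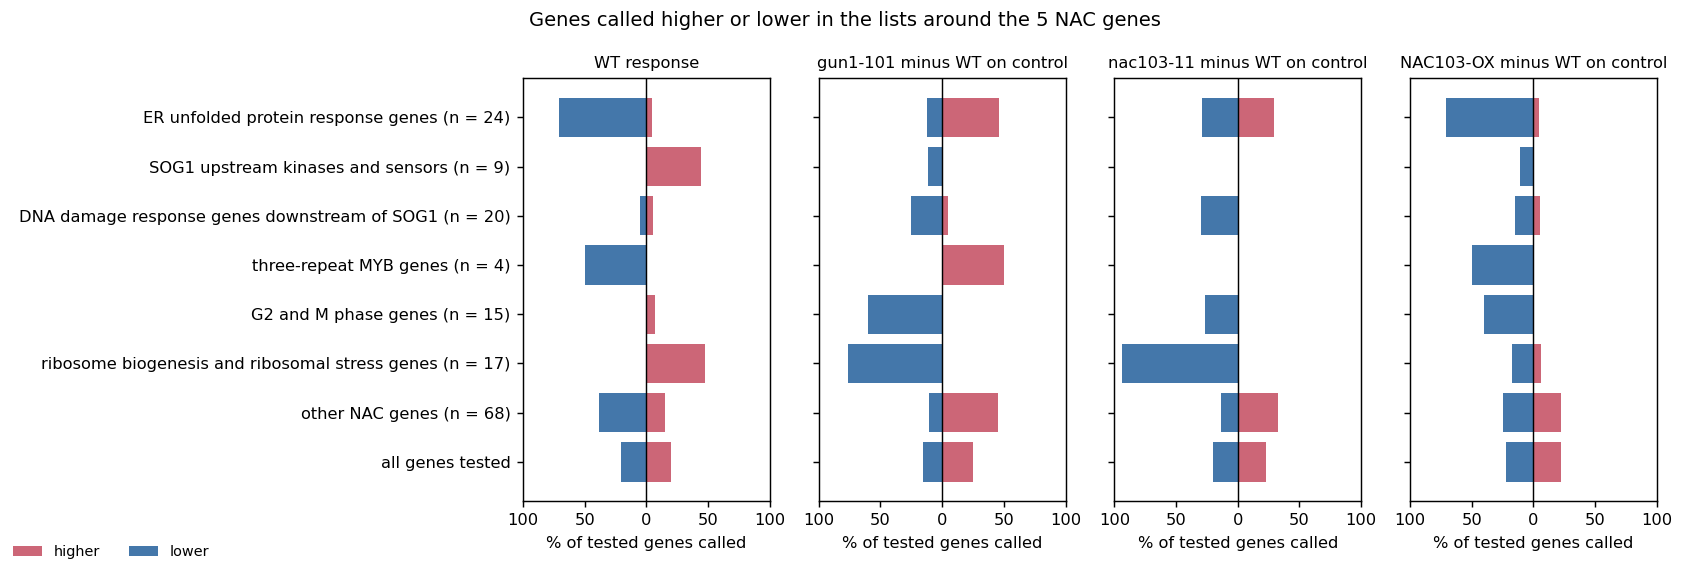
Percent of the tested genes of each list, and of all genes, that were called higher (to the right) or lower (to the left) in the WT response and in the 3 comparisons with WT on control medium. Of 24 ER stress genes, 17 fell in WT on spectinomycin and 17 were lower in NAC103-OX, and 16 of 17 ribosome genes were lower in nac103-11.

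Of 68 other NAC genes tested, 15 were higher and 17 lower in NAC103-OX than in WT on control medium, close to the 22.8% and 22.6% of all genes. NAC042, which takes part in camalexin synthesis, fell from 38.1 ± 2.0 CPM in WT to 0.966 ± 0.18 in NAC103-OX, and it was at 1.301 ± 0.20 CPM in WT on spectinomycin. ATAF2 was lower by 1.64 ± 0.045 on the log2 scale, and RD26, a factor of the dehydration response, was higher by 1.35 ± 0.051. In gun1-101 NAC042 was 166 ± 6.6 CPM on control medium and 149 ± 3.1 on spectinomycin.

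The genes most like each member were found by Pearson's r of log2 CPM over 24 libraries, among 8159 genes with a name and a mean of at least 1 CPM. For NAC103 they were EMB1030 (r = 0.957), ACC2 (0.937) and CYP94B3 (0.918), where r rests on the gap between the 6 NAC103-OX libraries and the other 18. EMB1030 was at 8.57 ± 0.94 CPM in WT control and 109 ± 1.8 in NAC103-OX control, and ACC2 at 7.38 ± 0.19 and 88.6 ± 5.1. For NAC044 they were FMO GS-OX4 (0.927), MOT2 (0.909) and TPX2 (0.904), which rest on the same gap. For NAC082 they were TGA10 (0.968), UGT87A2 (0.967) and RHF1A (0.959). TGA10 was at 67.6 ± 2.4 CPM in WT control, 38.8 ± 2.9 in WT on spectinomycin, 40.5 ± 2.4 in NAC103-OX control and 71.5 ± 4.7 in gun1-101 on spectinomycin. For SOG1 the highest r was 0.764 (ROT3). Over the 18 libraries without the transgene, NAC103 came closest to CRY3 (0.778), and at these counts that likeness is weak. The r of NAC103 with NAC044 was 0.833 over 24 libraries and 0.16 over the 18 without the transgene.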

How the data were processed

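RNA from root tips was sequenced after selection of poly(A) RNA. The authors deposited 1 table with expected counts, TPM and FPKM per gene and library, made with RSEM 1.3.1 per the submitters' processing notes; the aligner, genome build and annotation are not given in the sources used here. The deposited expected counts (98.3% whole) were rounded and tested with edgeR 4.0.16 in R 4.3.3, with TMM scaling, a filter on low counts (minimum 10, total 15) and robust quasi-likelihood fits over 24 libraries in 8 groups, in 13 comparisons. The deposited TPM were used for levels between genes, and the deposited FPKM as a check. A further 24 normalized and 32 average columns were not used.

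Gene symbols, promoters and coding sequences came from RefSeq TAIR10.1 (24424 IDs matched, 73 did not). Protein sequences were not used here. The members and lists were chosen with earlier results of these data known. From each list, up to 3 called genes with the smallest p in each comparison could be named, along with the 5 members, GUN1 and the 3 most correlated genes per member. The scripts were tested on simulated data. Alternatives were DESeq2 1.42.0, RLE size factors, no filter, total counts without TMM (added after seeing the data), a replicate block, fits of fewer groups and leaving out each library. Intervals and counts cover these replicates, and low counts limit precision for NAC103, NAC044 and NAC085.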

Additional observations from a re-analysis of the deposited data

Results flagged for a closer look

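Responses to spectinomycin that differed from the WT response, by the interaction term of the edgeR fit, were found for 3 of the NAC genes. For NAC082 the response differed by 0.30 ± 0.077 (log2, SE) in gun1-101 (adjusted p = 0.00275). In NAC103-OX it differed by 0.53 ± 0.077 (adjusted p = 4.79e-07). For NAC103 in nac103-11 the difference was -2.41 ± 0.65 (adjusted p = 0.0113), from 2, 0 and 2 counts on spectinomycin. For NAC044 in NAC103-OX it was -1.07 ± 0.40 (adjusted p = 0.0354), with 6 to 27 counts in the WT libraries.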

How the results depend on the processing

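Of 873 alternative values for the 5 genes, 849 stayed on the same side of the threshold, 15 lost a call, 9 gained one and 0 reversed a call. Some differences that were not called changed sign when single libraries were left out. Among them, NAC103 in gun1-101 against WT ranged from -0.56 to 0.034 on spectinomycin. NAC044 in gun1-101 against WT ranged from -0.49 to 0.13 on control medium. With fits of only the groups compared, the NAC082 response in gun1-101 was -0.13 (adjusted p = 0.0482) and the NAC044 response in WT 0.90 (adjusted p = 0.0804). With DESeq2 the latter was 0.90 and the NAC044 difference of NAC103-OX and WT responses -1.05. With total counts, NAC082 against WT on control medium was 0.018 in gun1-101, a call lost, and -0.21 in nac103-11, a call gained. By the same scaling, SOG1 was 0.18 in the nac103-11 response and -0.26 (control) and -0.37 (spectinomycin) in gun1-101 against WT, and NAC044 was -0.89 in gun1-101 on spectinomycin. That scaling moved the median of all genes by -0.19, -0.14 and -0.23 in gun1-101 control, nac103-11 control and gun1-101 spectinomycin against WT, and by 0.16 in the nac103-11 response; changes are given relative to TMM. The cause of the other changes was not tested.

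With single libraries left out, values ranged from -2.81 to -1.84 for the NAC103 difference of nac103-11 and WT responses, from -0.19 to -0.089 for the NAC082 response in gun1-101 and from 0.14 to 0.22 for NAC082 in NAC103-OX on spectinomycin. For NAC044 they ranged from 0.58 to 1.20 in the WT response, from -0.996 to -0.30 in gun1-101 and from -1.47 to -1.01 in nac103-11 on spectinomycin, and from -1.35 to -0.73 for the NAC103-OX difference. The genes called in the NAC103-OX response numbered 990, and 483 to 711 with any 1 of its libraries left out. NAC085 was not run in fits of fewer groups, and NAC103 and NAC044 were missing from some of those fits. NAC103 had 178 alternative values and NAC044 had 181, against 183 each for NAC082 and SOG1. Same-numbered libraries did not deviate together (r -0.17 to 0.20 over 84 pairs, 9 over 0.1). With the replicate block the NAC044 response in WT was 0.93 (adjusted p = 0.0211), and no call of the 4 tested genes changed. With total counts, DNA damage genes lower in nac103-11 on control medium went from 6 to 13, and G2 and M genes lower in gun1-101 from 9 to 14. Of all 19567 genes, those lower on control medium went from 3940 to 7105 in nac103-11 and from 3095 to 8383 in gun1-101. Whether the lists moved beyond this shift of all genes was not tested. Ribosome genes that rose in WT on spectinomycin numbered 8, 4 with RLE size factors and 4 without WT spectinomycin replicate 3. Low counts limit NAC103, NAC044 and NAC085.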
